A study of Mus musculus with 9 samples.

Results

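The 8 genes described here are the apoptosis genes Casp8, Casp9, Casp12, Apaf1, Bax, Bak1, Bcl2 and Bcl2l1, chosen by name as rows of the cardiac read table and of the tables of TPM (reads per transcript length, scaled to a common total in each library). They were 8 of 41710 gene names in the table, and all 8 were among the 15504 genes that passed the filter on low read numbers. Their 44 listed transcripts were summed by gene, and Casp9 was also followed transcript by transcript. The libraries came from whole, pulverised hearts of male mice on the FVB/N background at 8 months of age, with 3 hearts per group. Tg-RKIP mice carried an RKIP (RAF kinase inhibitor protein) transgene, which the study places under the alpha-MHC promoter, active in heart muscle cells, and had symptoms of heart failure according to the series description. Tg-GRK2 mice were labelled as carrying a transgene for the G-protein-coupled receptor kinase GRK2, and no promoter for it was found in the sources used here. The FVB group was non-transgenic. The comparisons ask how far the transcripts of the apoptosis machinery differ between each transgenic group and the FVB hearts, and between both transgenic groups.

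Apoptosis is carried out by caspases, proteases that are made as inactive precursors. In the mitochondrial pathway, the effectors Bax and Bak1 open the outer mitochondrial membrane and let out cytochrome c, which assembles with Apaf1 into the apoptosome, where the initiator caspase 9 is activated. Bcl2 and Bcl2l1 (the gene of BCL-XL) bind and restrain these effectors, caspase 8 starts the pathway downstream of death receptors, and caspase 12 resides at the endoplasmic reticulum of the mouse. Heart muscle cells are not replaced at an appreciable rate, and loss of these cells is a known feature of failing hearts. Most of these proteins are regulated by cleavage, binding or localisation, so a transcript level is not a measure of apoptosis.

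Libraries held 25458108 to 33447654 reads, and the 8 genes together received 2950 to 6486 reads per library. Normalised CPM are reads scaled by the library total after that total is multiplied by a TMM factor (trimmed mean of M values). The RKIP gene Pebp1 had 8262 ± 127 normalised CPM (SD, n = 3) in Tg-RKIP hearts and 293.9 ± 4.23 in FVB hearts. This was a log2 fold change of 4.81 with TMM. Grk2 had 56.4 ± 1.83 CPM in hearts labelled Tg-GRK2 against 54.3 ± 2.11 in FVB hearts, a log2 fold change of 0.05 with adjusted p = 0.354 in edgeR, so the label was not borne out by this gene and the group is called by its label below. Whether reads of the transgene would be assigned to the Grk2 rows was not given in the sources used here, so this value cannot show that the label is wrong. Mitochondrially encoded genes took 11.7% ± 0.156 of the reads in Tg-RKIP hearts, 22.6% ± 0.299 in hearts labelled Tg-GRK2 and 23.1% ± 0.158 in FVB hearts. In RNA from a whole heart, fewer cells of a type and less RNA per cell cannot be told apart.

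The 4 BCL2 family genes were, on normalised reads, the members with the largest differences between Tg-RKIP and FVB hearts, and the stretch before the start site of each is shown so that their make-up can be compared. The sequences are the 250 bases before a RefSeq start site on build GRCm38.p6, written 5′ to 3′ on the strand of the gene, with the GC box GGGCGG and its reverse complement CCGCCC, letters bound by SP1-type factors, in capitals. The windows were Bax, chr7:45466899-45467148, Bak1, chr17:27028628-27028877, Bcl2, chr1:106714291-106714540, and the farthest upstream of 3 Bcl2l1 start sites, chr2:152831729-152831978, all on the minus strand.
Bax: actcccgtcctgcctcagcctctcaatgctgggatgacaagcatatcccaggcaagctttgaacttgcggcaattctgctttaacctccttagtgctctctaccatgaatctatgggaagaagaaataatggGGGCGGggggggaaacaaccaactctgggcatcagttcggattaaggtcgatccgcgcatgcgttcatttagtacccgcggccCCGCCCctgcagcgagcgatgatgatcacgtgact
Bak1: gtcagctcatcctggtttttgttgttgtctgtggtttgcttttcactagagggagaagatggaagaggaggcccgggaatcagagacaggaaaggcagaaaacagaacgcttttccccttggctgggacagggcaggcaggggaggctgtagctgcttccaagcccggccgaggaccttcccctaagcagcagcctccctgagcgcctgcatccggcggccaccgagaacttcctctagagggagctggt
Bcl2: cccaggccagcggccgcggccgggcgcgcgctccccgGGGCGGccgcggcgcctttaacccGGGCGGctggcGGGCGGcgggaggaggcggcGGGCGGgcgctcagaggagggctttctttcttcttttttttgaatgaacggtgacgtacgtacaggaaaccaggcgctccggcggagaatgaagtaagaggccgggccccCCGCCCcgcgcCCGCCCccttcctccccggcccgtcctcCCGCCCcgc
Bcl2l1: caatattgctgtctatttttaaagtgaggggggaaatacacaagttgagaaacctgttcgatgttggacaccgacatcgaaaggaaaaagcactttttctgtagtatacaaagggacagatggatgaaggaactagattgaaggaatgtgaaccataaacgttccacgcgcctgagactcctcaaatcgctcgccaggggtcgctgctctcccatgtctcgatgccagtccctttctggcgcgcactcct
All 8 members matched the RefSeq table, with 10 windows in all. The Bcl2 window held 7 GC boxes and was 74.8% G and C, and the Bax window held 2 at 54.0% G and C. The Bak1 window and the 3 Bcl2l1 windows held none. The motif was present in 32.74% of 32851 promoter windows of the same length, whose median G and C content was 52.4%. The Casp9 window held 4 GC boxes and the Apaf1 window held 2, while those of Casp8 and Casp12 held none and were 39.6% and 39.2% G and C. The 4 BCL2 family windows shown thus had no GC box content in common, and a match is a run of letters and not a measured binding site.

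In Tg-RKIP hearts, Bax, Bak1, Bcl2 and Bcl2l1 all rose against FVB, by 1.41-fold to 1.74-fold, so that effectors and their inhibitors were higher together. Casp9 was 1.15-fold higher on summed reads, and Casp12 was 0.88-fold with TMM but 0.19 in log2 with library size alone. Casp8 and Apaf1 passed no threshold with TMM but were called higher with library size alone. With edgeR's quasi-likelihood test, reads scaled by TMM (trimmed mean of M values) and Benjamini-Hochberg adjustment over 15504 genes at 0.05, 5 of 8 members were higher and 1 was lower. Over all genes tested, 36.8% were higher and 37.1% were lower, 73.9% in all, so a count of 6 of 8 members called is close to the background of this comparison. The median log2 fold change was 0.35 over the members and 0.01 over all genes tested. In 5 members, no Tg-RKIP library overlapped the FVB libraries in normalised CPM and all 5 were higher, a separation found in 75.7% of all genes tested and upward in 38%. In TPM, 7 members were separated, all upward, against 78.8% of genes in either direction and 64.3% upward.

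The members called between hearts labelled Tg-GRK2 and FVB with TMM were all among those called in Tg-RKIP hearts. Bcl2 and Bcl2l1 went in the opposite direction, and Casp9 and Casp12 in the same one. Casp12 and Bcl2l1 were 0.69-fold and 0.79-fold of FVB, Bcl2 was 0.88-fold and Casp9 was 1.16-fold, while Bax, Bak1, Casp8 and Apaf1 did not pass the threshold. Here 1 of 8 members was called higher and 3 were called lower, where 12.2% of all genes tested were higher and 12.2% were lower, 24.5% in all. The median log2 fold change was −0.14 over the members and 0.00 over all genes tested. In 4 members the libraries did not overlap in normalised CPM, against 37.1% of all genes tested, and 1 of them was higher, against 18.5%. In TPM, 3 members were separated, all downward, against 33.8% in either direction and 22.9% upward. Both comparisons use the same 3 FVB libraries, so their values are not independent.

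Between Tg-RKIP hearts and those labelled Tg-GRK2, 5 of 8 members were higher in Tg-RKIP hearts and none was lower in edgeR, with 37.9% of all genes tested higher, 36.6% lower and 74.5% called in all. On summed reads no member was lower at an unadjusted p under 0.05 or in DESeq2, but on the most abundant transcript edgeR called Casp9 lower (−0.25, adjusted p = 0.00242) and did not call Casp12 (0.27, adjusted p = 0.124). The members called were Bcl2, Bcl2l1, Bak1, Bax and Casp12, and in these 5 the libraries did not overlap in normalised CPM, against 76.4% of genes in either direction and 39.1% upward. In TPM all 8 members were separated upward, against 78.5% and 61.6%. The plot of fold changes sets the 3 comparisons side by side.

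The deposited table, for which the processing notes name build GRCm39, places Bax at chr7:45111121-45116322, Bak1 at chr17:27238784-27247983, Bcl2 at chr1:106465908-106642004, Bcl2l1 at chr2:152622588-152673648 and Apaf1 at chr10:90825173-90918632, all on the minus strand. Casp8 lies at chr1:58834533-58886662, Casp9 at chr4:141520923-141543287 and Casp12 at chr9:5345430-5373032, on the plus strand. All values by gene sum the reads of 2 to 9 listed transcripts per gene. The plot of normalised CPM shows each library.

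**Figure D1:**
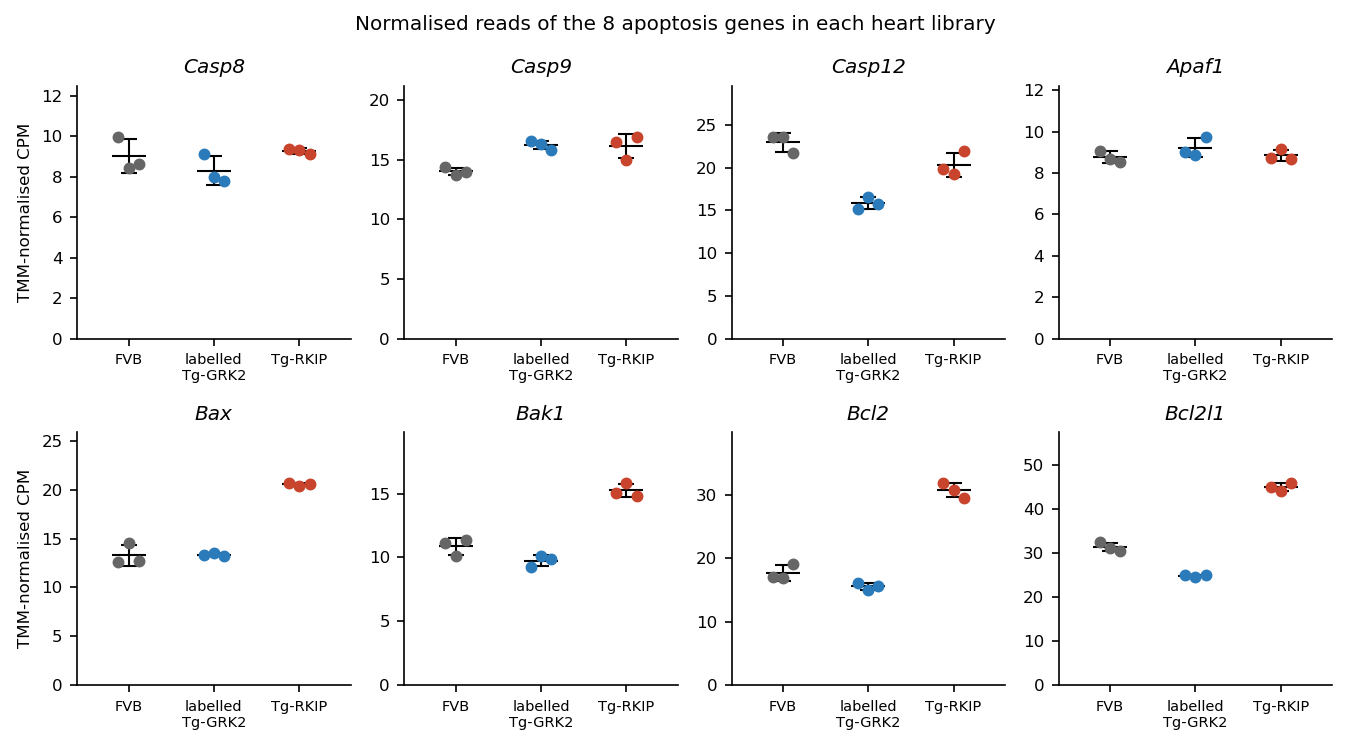
TMM-normalised CPM of each gene (vertical axes from 0) in the 3 libraries of each group, with points for libraries and bars for mean ± SD. Bax, Bak1, Bcl2 and Bcl2l1 sit higher in all 3 Tg-RKIP libraries than in the other 6, and the Casp12 points of the group labelled Tg-GRK2 sit below those of the other 6 libraries.

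Bax encodes an effector that moves from the cytosol to mitochondria when activated. It had 20.7, 20.3 and 20.6 normalised CPM in the 3 Tg-RKIP libraries, 13.3, 13.5 and 13.2 in those labelled Tg-GRK2, and 12.6, 14.5 and 12.7 in FVB. All Tg-RKIP libraries were above the other 6, and the libraries labelled Tg-GRK2 lay inside the range of FVB. The log2 fold change against FVB was 0.62 ± 0.057 (SE, n = 3) in Tg-RKIP hearts (adjusted p = 1.88e-09) and 0.00 ± 0.063 in hearts labelled Tg-GRK2 (adjusted p = 0.984). Bax exons share 192 bases with the gene model Gm45808 on the same strand, which received 0 reads in Tg-RKIP libraries and 2 to 48 in the others, against 311 to 805 reads for Bax.

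Bak1, the effector that resides in the outer mitochondrial membrane, had 15.1, 15.8 and 14.9 CPM in Tg-RKIP libraries, 9.26, 10.2 and 9.86 in those labelled Tg-GRK2, and 11.1, 10.2 and 11.4 in FVB. Again the Tg-RKIP libraries did not overlap the rest, while one library labelled Tg-GRK2 was level with the lowest FVB library. The log2 fold change was 0.49 ± 0.063 in Tg-RKIP hearts (adjusted p = 4.1e-07) and −0.15 ± 0.071 in hearts labelled Tg-GRK2 (adjusted p = 0.126). On the most abundant transcript the first was 0.62 and not called (adjusted p = 0.117). From 53.4% to 100% of the Bak1 reads of a library were assigned to 2 transcripts annotated as targets of nonsense-mediated decay. Bak1 shares 614 exon bases, 25.5% of its exon length, with Ggnbp1 on the other strand, a gene with 131 to 258 reads per library. Whether reads were counted by strand was not given in the sources used here, so reads of these genes may be mixed.

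Bcl2 showed the largest difference of the 8 genes between Tg-RKIP and FVB hearts on normalised reads, while Apaf1 did in TPM. The gene encodes the founding inhibitor of the family, and its normalised CPM were 31.9, 30.9 and 29.6 in Tg-RKIP libraries, 16.1, 15.1 and 15.7 in those labelled Tg-GRK2, and 17.1, 16.9 and 19.2 in FVB. The 3 groups did not overlap, with Tg-RKIP highest and the libraries labelled Tg-GRK2 lowest. In Tg-RKIP hearts the log2 fold change against FVB was 0.80 ± 0.052 (adjusted p = 6.02e-12). In hearts labelled Tg-GRK2 it was −0.18 ± 0.060 (adjusted p = 0.0319), and this call was lost with DESeq2 (adjusted p = 0.127), in limma on TPM (adjusted p = 0.256), and without replicate 2 or replicate 3 of that group or replicate 3 of FVB (adjusted p = 0.119, 0.0701 and 0.189). The call was also lost in edgeR on the most abundant transcript (adjusted p = 0.14).

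Bcl2l1, whose long product BCL-XL is an inhibitor and whose short splice product promotes apoptosis, received the most reads of the members. It had 44.9, 44.1 and 45.8 CPM in Tg-RKIP libraries, 24.9, 24.6 and 25.0 in those labelled Tg-GRK2, and 32.3, 31.1 and 30.5 in FVB. No group overlapped another, in the same order as for Bcl2. The log2 fold change against FVB was 0.52 ± 0.036 in Tg-RKIP hearts (adjusted p = 1.87e-11) and −0.33 ± 0.041 in hearts labelled Tg-GRK2 (adjusted p = 2.16e-06), and 0.85 ± 0.037 between both (adjusted p = 4.37e-15). Its main transcript, Bcl2l1_2 (ENSMUST00000007803, 2417 bases), followed with 0.67 ± 0.055 and −0.47 ± 0.056 (adjusted p = 4.6e-05 and 0.00443 among transcripts).

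Among the caspases, Casp12 was lowest in hearts labelled Tg-GRK2, with 15.2, 16.6 and 15.8 CPM against 23.7, 23.6 and 21.7 in FVB and 19.9, 19.2 and 21.96 in Tg-RKIP. The libraries labelled Tg-GRK2 were the lowest, and one Tg-RKIP library lay within the FVB range. Against FVB, the log2 fold change was −0.54 ± 0.060 in hearts labelled Tg-GRK2 (adjusted p = 5.96e-07). In Tg-RKIP hearts it was −0.18 ± 0.055 (adjusted p = 0.00586) with TMM, 0.19 (adjusted p = 0.00335) with library size alone, −0.01 (adjusted p = 0.926) with library size after leaving out mitochondrially encoded genes, and 0.07 (adjusted p = 0.313) in limma on TPM, so its direction in Tg-RKIP hearts depended on the scaling.

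Casp8, the initiator of the death receptor pathway, had 9.39, 9.32 and 9.10 CPM in Tg-RKIP libraries, 9.11, 8.01 and 7.81 in those labelled Tg-GRK2, and 9.99, 8.42 and 8.65 in FVB. All 3 groups overlapped. Its log2 fold change against FVB was 0.04 ± 0.080 in Tg-RKIP hearts (adjusted p = 0.64) and −0.12 ± 0.084 in hearts labelled Tg-GRK2 (adjusted p = 0.35). Apaf1, the scaffold of the apoptosome, had 8.71, 9.17 and 8.67 CPM in Tg-RKIP libraries, 9.04, 8.89 and 9.76 in those labelled Tg-GRK2, and 9.07, 8.67 and 8.53 in FVB, which overlapped too. Its log2 fold change was 0.02 ± 0.072 (adjusted p = 0.82) in Tg-RKIP hearts and 0.08 ± 0.074 (adjusted p = 0.497) in hearts labelled Tg-GRK2, where limma on TPM gave −0.13.

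Casp9, the initiator caspase of the apoptosome, had 16.5, 15.0 and 17.0 CPM in Tg-RKIP libraries, 16.5, 16.3 and 15.9 in those labelled Tg-GRK2, and 14.4, 13.8 and 14.0 in FVB. Both transgenic groups lay above FVB without overlap and overlapped each other. The log2 fold change against FVB was 0.20 ± 0.058 in Tg-RKIP hearts (adjusted p = 0.00471) and 0.21 ± 0.060 in hearts labelled Tg-GRK2 (adjusted p = 0.013). The call in Tg-RKIP hearts was lost on the most abundant transcript (0.03, adjusted p = 0.721). The call in hearts labelled Tg-GRK2 was lost with DESeq2 (adjusted p = 0.0546), in limma on TPM (adjusted p = 0.633) and without replicate 2 of FVB (adjusted p = 0.0519). Between the transgenic groups the log2 fold change was −0.01 ± 0.056 (adjusted p = 0.838), which turned to 0.35 with library size alone and to 0.81 in limma on TPM.

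The scale used for a library bears on these values. Under TMM the median log2 fold change of all genes between Tg-RKIP and FVB was 0.01, with library size alone it was 0.38, after leaving out mitochondrially encoded genes 0.18, and in limma on log2(TPM + 0.1) 0.43. The share of calls that were higher in Tg-RKIP hearts went from 49.8% with TMM to 78.6%, 64.9% and 82% in that order. Bax, Bak1, Bcl2, Bcl2l1 and Casp9 were called higher under all 4 scalings, at 1.00, 0.87, 1.18, 0.90 and 0.57 with library size alone. Casp8 and Apaf1 were not called with TMM but were called higher under each of the other scalings. With library size alone they were at 0.42 and 0.39, and after leaving out mitochondrially encoded genes at 0.22 and 0.19. In limma on TPM they were at 0.42 and 1.30. These values were near the median of all genes under the same scaling, except that of Apaf1 in limma. Between hearts labelled Tg-GRK2 and FVB these medians ranged only from 0.00 to 0.04.

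**Figure D2:**
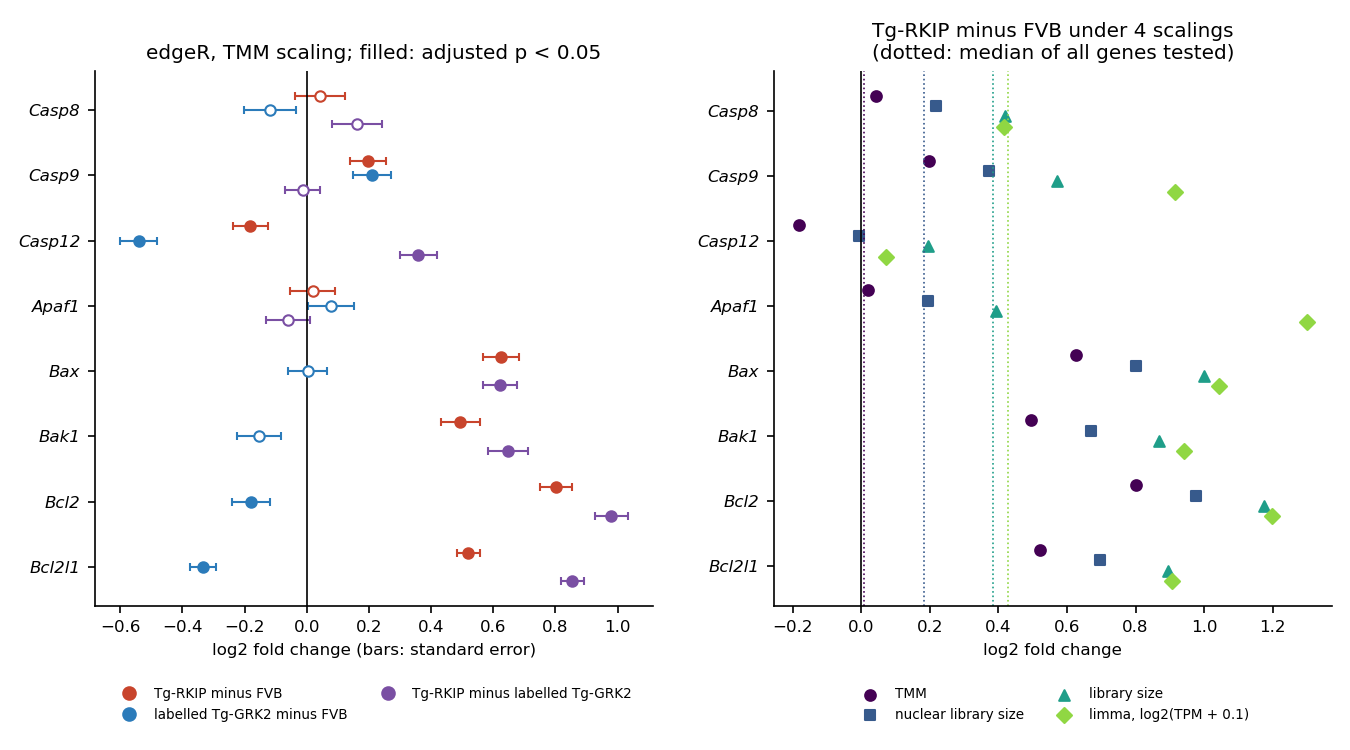
Log2 fold changes of the 8 genes. On the left are 3 comparisons with bars for the standard error and filled points for an adjusted p under 0.05. On the right is Tg-RKIP minus FVB under 4 scalings, with dotted lines at the median of all genes tested and nuclear library size standing for totals without mitochondrially encoded genes. Casp12 moves from −0.18 with TMM to 0.19 with library size alone, and Apaf1 from 0.02 to 1.30 in TPM.

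Casp9 and Apaf1 gave different answers in TPM and in reads. Summed over transcripts, Casp9 had 11.5 ± 2.05 TPM in Tg-RKIP hearts and 5.999 ± 0.376 in FVB hearts, a ratio of 1.92, and Apaf1 had 6.05 ± 1.05 and 2.40 ± 0.410, a ratio of 2.53. Both ratios exceed the read-based folds of 1.15 and 1.01, and the median of all genes was itself 0.43 in log2 on the TPM scale. In each gene 1 short processed transcript took a larger share of TPM than of reads, because TPM divides reads by length.

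For Casp9 this transcript was Casp9_3 (ENSMUST00000124161, 854 bases, 3 exons, processed transcript). It received 91, 50 and 86 reads in Tg-RKIP libraries, 24, 10 and 0 in those labelled Tg-GRK2, and 27, 20 and 17 in FVB. All 854 bases lie in the 3′ untranslated part of exon 9, the last exon, of the coding transcript Casp9_5 in GENCODE M21 on GRCm38. Casp9_5 (ENSMUST00000030747, 3897 bases, 9 exons) received 417, 544 and 424 reads in Tg-RKIP libraries, 419, 415 and 479 in those labelled Tg-GRK2, and 332, 367 and 325 in FVB. Its TPM were 6.47 ± 0.0878, 5.75 ± 0.0851 and 4.63 ± 0.0699 in the same order of groups. Casp9_6 received 2 reads in 1 FVB library, and the other 3 transcripts of Casp9 received 0 reads in every library, where the limit that 0 reads allow is 3 reads per library.

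In the transcript-level edgeR fit, Casp9_5 had a log2 fold change of 0.10 ± 0.050 in Tg-RKIP hearts against FVB (adjusted p = 0.18) and 0.27 ± 0.050 in hearts labelled Tg-GRK2 (adjusted p = 0.0303). It was lower in Tg-RKIP hearts than in those labelled Tg-GRK2, at −0.17 ± 0.050 (adjusted p = 0.0319), and the sign turned to 0.17 with library size alone. Casp9_3 had 1.54 ± 1.10 (adjusted p = 0.338) and −0.95 ± 1.10 (adjusted p = 0.849). A gain of Casp9_3 was thus not called, although its reads in the 3 Tg-RKIP libraries were all above those of the other 6 libraries. Of all transcripts tested, 34% were called between Tg-RKIP and FVB hearts and 3.42% between hearts labelled Tg-GRK2 and FVB, with 37% between both transgenic groups. Of the 22 transcripts of members tested, 4 were higher and 1 was lower in Tg-RKIP hearts, and 1 was higher and 1 lower in hearts labelled Tg-GRK2.

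Apaf1_1 (ENSMUST00000160725, 511 bases, 2 exons, processed transcript) received 41, 44 and 22 reads in Tg-RKIP libraries, 4, 0 and 0 in those labelled Tg-GRK2, and 3, 2 and 10 in FVB. It overlaps the last exon, exon 27, of the coding transcript Apaf1_4 (ENSMUST00000159110, 6433 bases), with 109 bases in the coding part and 402 in the untranslated part. This transcript took 8.43% to 15.2% of the Apaf1 reads in Tg-RKIP libraries but 53.1% to 69.0% of the Apaf1 TPM. Its share of Apaf1 was called between Tg-RKIP hearts and those labelled Tg-GRK2 (diffSpliceDGE in edgeR, adjusted p = 0.0241), a call made for 11.7% of all transcripts tested for their share. Against FVB it was not called in Tg-RKIP hearts (adjusted p = 0.514), where 8.95% of transcripts were called. No member's transcript changed its share in that comparison at an unadjusted p under 0.05, with 21 tested, nor between hearts labelled Tg-GRK2 and FVB, where 0.768% of all transcripts were called. In 2 FVB libraries, 50 and 114 Apaf1 reads were assigned to Apaf1_5, a coding transcript of 6577 bases that had 0 reads elsewhere.

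**Figure D3:**
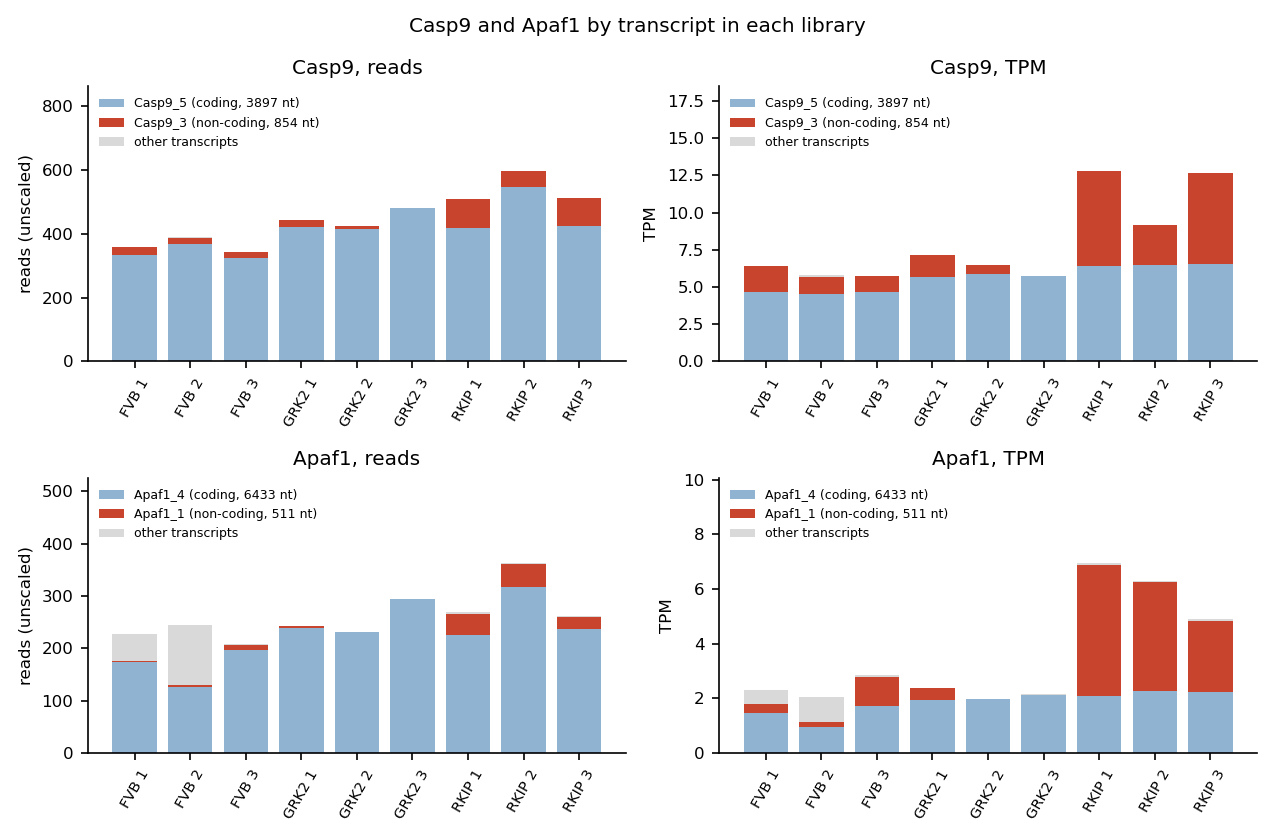
Reads (left, not scaled by depth) and TPM (right) of Casp9 and Apaf1 in each library, stacked by transcript, with all axes from 0. The short processed transcripts Casp9_3 and Apaf1_1 are a thin part of the reads and 29.5% to 69.0% of the TPM in the 3 Tg-RKIP libraries.

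Bax_3 (ENSMUST00000033093, 867 bases) had a log2 fold change of 0.71 ± 0.128 and Bcl2_1 (ENSMUST00000112751, 7191 bases, 2 exons) of 0.83 ± 0.063 in Tg-RKIP hearts against FVB (adjusted p = 0.00337 and 2.63e-05). Casp8_3 was higher at 0.43 ± 0.124 (adjusted p = 0.0296), although the gene was not called. Casp12_5 (ENSMUST00000151332, 1065 bases, protein coding) was lower at −1.23 ± 0.263 (adjusted p = 0.00811). The main Casp12 transcript, Casp12_4, is annotated as a target of nonsense-mediated decay, and had −0.20 ± 0.141 (adjusted p = 0.329). How reads shared by overlapping transcripts were divided was not given in the sources used here, so these transcript values depend on that step.

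Per length, the order of the members was nearly the same in every group. In FVB hearts Bax had 21.2 ± 1.65 TPM and Bcl2l1 19.0 ± 1.16, and these neighbours overlapped. Casp12 followed with 16.2 ± 1.02 TPM, then Bak1 with 7.27 ± 0.284, Casp8 with 6.38 ± 0.646 and Casp9 with 5.999 ± 0.376, where Bak1 overlapped Casp8 and Casp8 overlapped Casp9. Bcl2 had 3.42 ± 0.247 TPM and Apaf1 2.40 ± 0.410, and both were below the rest without overlap. In Tg-RKIP hearts the levels were 43.7 ± 0.696 TPM for Bax, 35.7 ± 1.20 for Bcl2l1, 17.0 ± 1.16 for Casp12, 14.1 ± 0.317 for Bak1, 11.5 ± 2.05 for Casp9, 8.52 ± 0.151 for Casp8, 7.97 ± 0.312 for Bcl2 and 6.05 ± 1.05 for Apaf1, and no neighbours in this order overlapped. In hearts labelled Tg-GRK2 they were 21.9 ± 0.583, 15.8 ± 0.806, 12.1 ± 0.363, 6.73 ± 0.313, 6.46 ± 0.713, 6.003 ± 0.543, 3.12 ± 0.0881 and 2.16 ± 0.195 TPM for the same genes in the same order, with overlap between Bak1 and Casp9 and between Casp9 and Casp8. The depth of 209 to 1745 reads per member and library lies behind these levels.

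A ratio of 2 members within a library does not depend on how the library is scaled. The ratio of Bax to Bcl2 in TPM, often read as the balance of an effector and an inhibitor, was 5.36, 5.40 and 5.69 in Tg-RKIP libraries, 6.95, 7.39 and 6.81 in those labelled Tg-GRK2 and 6.09, 7.14 and 5.46 in FVB. The Tg-RKIP and FVB ranges overlapped, with a difference of −0.18 in log2 (two-sided exact permutation test, p = 0.2), and Tg-RKIP libraries were all below those labelled Tg-GRK2, by 0.36 in log2 (exact p = 0.1). Bax to Bcl2l1 was 1.23 ± 0.0219 in Tg-RKIP hearts, 1.39 ± 0.0427 in hearts labelled Tg-GRK2 and 1.12 ± 0.117 in FVB hearts. Hearts labelled Tg-GRK2 did not overlap FVB hearts in this ratio (0.32 in log2, exact p = 0.1), nor in that of Bak1 to Bcl2l1 (0.15 in log2, exact p = 0.1). Bcl2 to Bcl2l1 was higher in all Tg-RKIP libraries than in FVB, 0.224 ± 0.00828 against 0.181 ± 0.0219, with 0.31 in log2 (exact p = 0.1). Bax to Bak1 was 3.11 ± 0.0912, 3.26 ± 0.139 and 2.92 ± 0.331 in Tg-RKIP, labelled Tg-GRK2 and FVB hearts, which overlapped.

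With 3 libraries against 3 the smallest p the exact test can give is 0.1, and over all 21 ratio tests the smallest adjusted p was 0.233, so none could pass 0.05. Casp8 to Casp9 was 0.757 ± 0.150 in Tg-RKIP hearts and 1.06 ± 0.0403 in FVB hearts without overlap (−0.51 in log2, exact p = 0.1), and on the most abundant transcripts the sign turned to 0.33. Casp9 to Apaf1 was 1.96 ± 0.573 in Tg-RKIP hearts and 2.56 ± 0.459 in FVB hearts (−0.41 in log2, exact p = 0.2), and on normalised reads the sign turned to 0.19. Both ratios rest on the summed TPM that the short transcripts of Casp9 and Apaf1 enter.

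**Figure D4:**
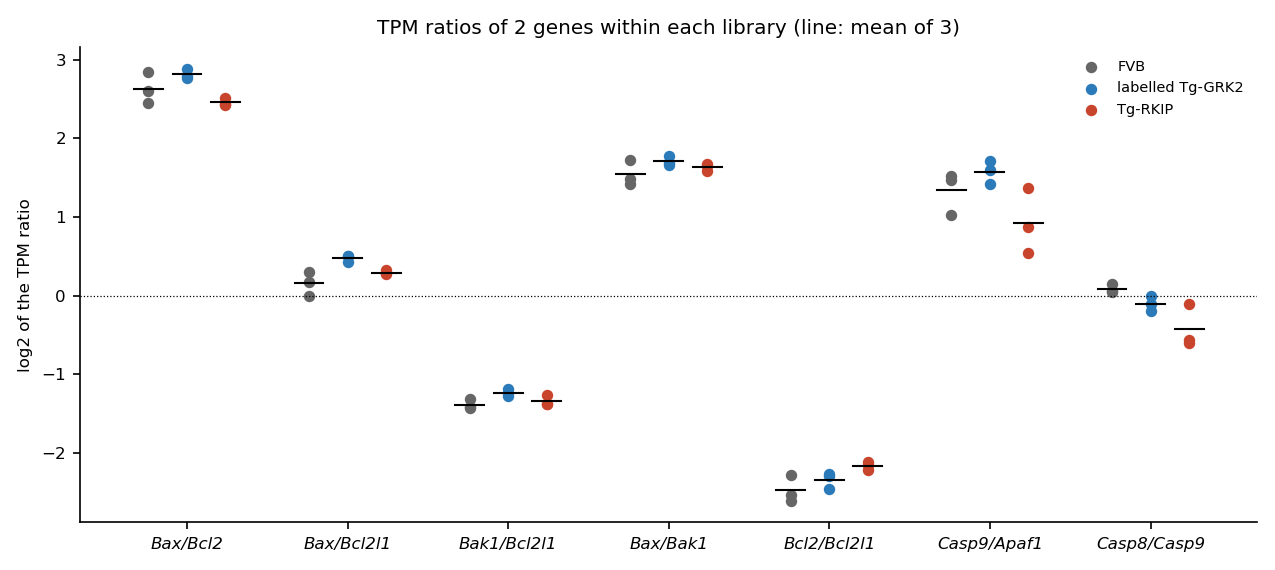
Log2 of the ratio of 2 members' TPM within each library, with a point per library, 3 per group, and a line at the mean. Bax to Bcl2 is lower in all 3 Tg-RKIP libraries than in those labelled Tg-GRK2 and overlaps FVB, and Bax to Bcl2l1 is highest in the libraries labelled Tg-GRK2.

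Of 48 further apoptosis genes in lists by role, 44 were tested. Between Tg-RKIP and FVB hearts 23 were higher and 15 were lower, with a median log2 fold change of 0.21, beside 36.8% higher, 37.1% lower and a median of 0.01 over all genes. The split depended on the scaling, with 25 higher and 11 lower after leaving out mitochondrially encoded genes, 30 and 5 with library size alone, and 33 and 4 of 42 tested in limma on TPM. In that order, 64.9%, 78.6% and 82% of the calls among all genes were higher. The counts by role given below are with TMM unless stated, and stand beside 36.8% higher and 37.1% lower among all genes. In hearts labelled Tg-GRK2, 4 were higher and 8 were lower, with a median of 0.00, where 12.2% of all genes tested were higher, 12.2% lower and 24.5% called in all, and limma on TPM called 4 higher and 3 lower.

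Bok, the remaining multidomain effector, had 9.75, 9.70 and 10.8 CPM in Tg-RKIP libraries and 3.28, 3.40 and 2.29 in FVB, a log2 fold change of 1.74 ± 0.115 (adjusted p = 8.2e-12). Among 10 BH3-only and related genes, which trigger Bax and Bak1 or neutralise their inhibitors, 6 were higher and 2 were lower. In limma on TPM, 7 of 9 tested were higher and 0 lower. Pmaip1 (the gene of NOXA) was higher by 1.62 ± 0.272 and Bid, which caspase 8 cleaves, by 1.21 ± 0.156 (adjusted p = 1.69e-05 and 4.68e-07). Bid was lower in hearts labelled Tg-GRK2, at −0.66 ± 0.200 (adjusted p = 0.0182), a call lost in limma on TPM (−0.50, adjusted p = 0.0603). Of 4 further antiapoptotic family genes tested, 2 were higher and none was lower with TMM, while in limma on TPM 3 of 3 tested were higher. The 2 called with TMM were Mcl1, an inhibitor with a short-lived protein, at 0.16 ± 0.020 (adjusted p = 2.64e-07), and Bcl2a1b at 2.10 ± 0.407 (adjusted p = 8.86e-05), with 0 to 0.680 CPM in FVB libraries and reads that near-identical copies may share.

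Genes of factors that act after mitochondrial release went the other way with TMM. All 5 mitochondrial factors were lower in Tg-RKIP hearts, but with library size alone 2 were lower and 2 were higher, and after leaving out mitochondrially encoded genes 4 were lower. Cycs (cytochrome c) had 186.9, 185.3 and 187.8 CPM in Tg-RKIP libraries and 327.0, 313.1 and 299.5 in FVB, with a log2 fold change of −0.75 ± 0.028 (adjusted p = 3.37e-16). Aifm1, a mitochondrial flavoprotein, had −1.18 ± 0.026 (adjusted p = 1.95e-20). Cycs and Aifm1 were lower under all 4 scalings. Cycs was also lower in hearts labelled Tg-GRK2, at −0.16 ± 0.027 (adjusted p = 0.000197), a call lost in limma on TPM (−0.11, adjusted p = 0.0752).

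Inhibitors of apoptosis proteins divided, with 2 higher and 3 lower with TMM but 4 higher and 1 lower in limma on TPM. Xiap, which binds caspase 9 and effector caspases, had a log2 fold change of −0.68 ± 0.037 with TMM (adjusted p = 2.83e-13) and of −0.15 (adjusted p = 0.0332) in limma on TPM. Birc6 was lower at −0.96 ± 0.032 (adjusted p = 4.8e-17) in reads and higher at 0.28 in limma on TPM. Birc5 was higher at 1.35 ± 0.289 (adjusted p = 0.00027), with 0.367 to 0.637 CPM in FVB libraries.

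In the death receptor group, 6 of 7 tested were higher and 1 was lower in Tg-RKIP hearts with TMM. All 7 were higher in limma on TPM, where 82% of the calls among all genes were higher. Tnfrsf1a, the main receptor of tumour necrosis factor, had 64.4, 64.2 and 64.4 CPM in Tg-RKIP libraries and 37.9, 36.6 and 38.0 in FVB, a log2 fold change of 0.78 ± 0.033 (adjusted p = 3.82e-15), and its adaptor Tradd had 0.93 ± 0.109 (adjusted p = 1.14e-07). Cflar, a decoy of caspase 8, was lower at −0.44 ± 0.035 (adjusted p = 2.32e-10) with TMM and higher at 0.13 in limma on TPM. Of 5 other caspases tested 3 were higher and 1 was lower with TMM, while with library size alone 4 were higher and 0 lower. Casp6 was among the higher ones, at 0.50 ± 0.078 with TMM (adjusted p = 5.56e-06).

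Of 3 caspase substrates and nuclease genes 2 were lower, Parp1 at −0.55 ± 0.034 with TMM (adjusted p = 2.54e-12) and −0.14 (adjusted p = 0.00976) in limma on TPM, and Dffa at −0.30 ± 0.060 (adjusted p = 0.000129), which was 0.07 (adjusted p = 0.258) with library size alone. Of 4 endoplasmic reticulum stress genes tested beside Casp12, 3 were higher and 1 was lower with TMM, and all 4 were higher in limma on TPM. Trib3 had 1.26 ± 0.127 and Atf4, a transcription factor of the stress response, 0.46 ± 0.028 (adjusted p = 1.09e-08 and 2.37e-12). In hearts labelled Tg-GRK2, where Casp12 was lower, Atf4 was lower too at −0.36 ± 0.030 (adjusted p = 9.48e-09) and Trib3 was higher at 0.51 ± 0.142 (adjusted p = 0.0108).

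**Figure D5:**
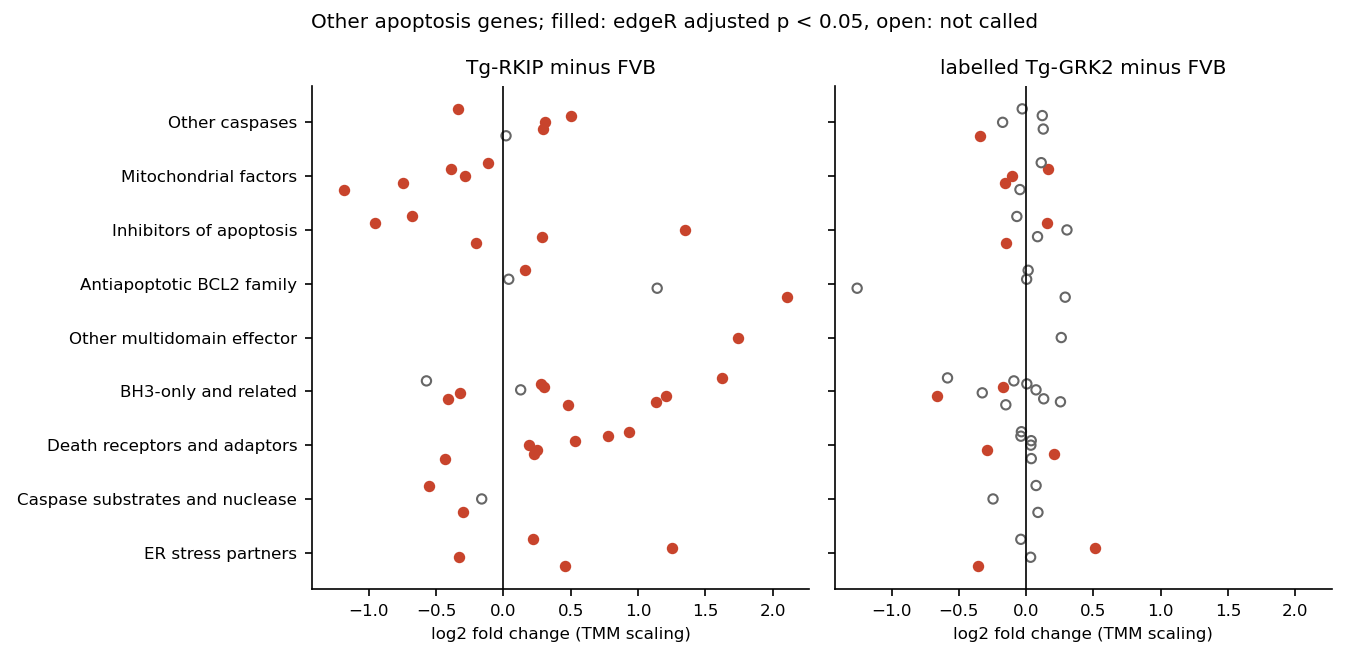
Log2 fold changes of the 44 further apoptosis genes tested, by role, with TMM scaling. Filled points passed an edgeR adjusted p of 0.05 and open points did not. Against FVB, the Tg-RKIP panel holds 38 filled points and the panel labelled Tg-GRK2 holds 12.

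Markers of several cell types differed from FVB in Tg-RKIP hearts, and some of them did in hearts labelled Tg-GRK2 too. Over all genes tested, 36.8% were higher and 37.1% were lower in Tg-RKIP hearts with TMM. The sums below are in TPM, a scale on which the median of all genes was itself 0.43 in log2 in limma. Medians in limma on TPM were 1.62 over the fibroblast, 0.50 over the endothelial and −0.12 over the cardiomyocyte markers. Of 6 fibroblast markers 6 were higher than in FVB, and their summed level was 2124 to 2127 TPM in Tg-RKIP libraries and 843.2 to 877.1 in FVB. All 5 macrophage markers and all 5 lymphocyte markers were higher, with sums of 263.2 to 270.7 against 104.1 to 105.0 TPM and of 11.1 to 11.9 against 4.16 to 4.62 TPM. The 4 adipocyte markers summed to 69.5 to 72.6 against 7.83 to 9.62 TPM, the 3 erythrocyte markers to 2594 to 2775 against 576.7 to 593.5, and the neutrophil markers to 7.27 to 8.14 against 0.288 to 0.874, with Ly6g at 0 reads in all FVB libraries. Of 5 endothelial markers 3 were higher and 2 were lower, with sums of 349.2 to 355.2 against 238.6 to 244.8 TPM. Of 6 cardiomyocyte markers 5 were lower with TMM, where 2 were higher and 4 lower with library size alone, and their sums of 43540 to 44430 and 43880 to 44300 TPM overlapped. Airway epithelium markers summed to 55.2 to 57.7 TPM in Tg-RKIP libraries, 137.6 to 146.2 in those labelled Tg-GRK2 and at most 0.0184 in FVB. In the libraries labelled Tg-GRK2, fibroblast markers summed to 908.6 to 919.8 TPM, macrophage markers to 111.9 to 117.4, adipocyte markers to 18.0 to 20.6, erythrocyte markers to 1292 to 1341 and neutrophil markers to 1.60 to 2.05. With TMM, all 4 adipocyte, all 3 erythrocyte, 3 of 6 fibroblast and 3 of 5 macrophage markers were higher there than in FVB. Of 6 cardiomyocyte markers 2 were higher and 4 lower, and of 5 endothelial markers 1 was higher and 2 lower. Over all genes tested, 12.2% were higher and 12.2% were lower. The part of these cell types in the levels of the 8 genes was not tested.

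The genes most like Casp9 over the 9 libraries, by Pearson's correlation of log2 normalised CPM among 15503 genes, were Rgmb (r = 0.95), Epn1 (r = 0.94) and Dctn1 (r = 0.92). These values describe 9 libraries that fall into 3 groups.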

How the data were processed

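RNA of 9 whole hearts, 3 per group, was sequenced as single reads of 50 bases. The authors deposited whole-number read counts and TPM (reads per transcript length, scaled to a fixed library sum) per transcript. The deposited TPM could be recomputed from the counts and lengths, with a largest difference of 5.50e-06. The submitters' processing notes name build GRCm39 without its role, and aligner, counter and the division of shared reads are not given in the sources used here. The members and gene lists were chosen with earlier results of these data known.

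Counts were summed by gene name and tested with edgeR 4.0.16 in R 4.3.3, using filterByExpr, TMM and quasi-likelihood F-tests over all 9 libraries (common biological coefficient of variation 2.86%). Benjamini-Hochberg adjustment covered all 15504 genes, or all transcripts tested in the transcript fit. That each heart is a different mouse rests on the series description and was not tested. The p-values measure the spread between libraries within groups, which was small, at 1.25 to 1.52 times the Poisson spread. They measure the spread between mice only if that description holds. TPM ratios used exact permutation tests. The text names all 8 members, in each further list up to 2 called genes with the largest change between Tg-RKIP and FVB hearts, Mcl1, Cycs, Xiap, Cflar, Bid and Bok regardless, and the 3 genes most like Casp9. The values of 1 gene named by this rule are not reported here. Exon overlaps and transcript positions come from GENCODE M21 on GRCm38, and start-site sequences from RefSeq on GRCm38.p6. The tests were also run on simulated counts in which few genes changed, in both directions. Here 73.9% of genes were called between Tg-RKIP and FVB hearts, so those counts cannot check the TMM scaling. Alternatives were DESeq2 1.42.0, limma 3.58.1 on log2 TPM with a pseudocount of 0.1 or 1 (at least 1 TPM in 3 libraries), other scalings and filters, a fit of only the groups compared, the most abundant transcript, a replicate block and each library left out. Libraries of 1 group differed by 1.25 to 1.52 times the Poisson spread, and none was a duplicate.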

Additional observations from a re-analysis of the deposited data

Results flagged for a closer look

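Bcl2 and Bcl2l1 were called in opposite directions against FVB in both transgenic groups, higher in Tg-RKIP hearts and lower in hearts labelled Tg-GRK2. The difference of the log2 fold changes, tested directly as Tg-RKIP minus labelled Tg-GRK2, was 0.98 for Bcl2 (edgeR, adjusted p = 1.84e-13) and 0.85 for Bcl2l1 (adjusted p = 4.37e-15). Of all 15504 genes tested, 73.9% were called in Tg-RKIP hearts and 24.5% in hearts labelled Tg-GRK2 against FVB. Between the transgenic groups 74.5% were called, and 2143 genes were higher in Tg-RKIP hearts by a log2 of at least 0.8. How many genes were called in opposite directions was not counted. Both effects share the FVB libraries, which cancel in the direct difference, so it does not test the direction of either group against FVB. In DESeq2 Bcl2 was at −0.17 in hearts labelled Tg-GRK2, a similar size, but was not called (adjusted p = 0.127). That call was also lost in limma with either pseudocount (adjusted p = 0.256 and 0.281). It was lost too in edgeR on the most abundant transcript (adjusted p = 0.14), and without some single libraries, as given above. Groups of 3 libraries are too small for a test of single outlying libraries.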

How the results depend on the processing

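In Tg-RKIP minus FVB, 6 members were called with each library left out in turn, and 4 on the most abundant transcript, where Casp9 (0.03, adjusted p = 0.721), Bak1 (0.62, 0.117) and Casp12 (−0.28, 0.114) were not called and Casp8 was (0.36, 0.0202). Of all genes, 11012 to 11570 were called with a library left out and 8713 of 15177 on the most abundant transcript. Casp8 and Apaf1 were also called higher with library size only, without mitochondrially encoded genes and in both limma fits. Casp12 was called higher with library size only and was not called in the others of these. Those settings called 12359 of 15504, 11688 of 15436, and 10896 and 10916 of 13478 genes. Log2 fold changes reversed for Casp12 with library size only (0.19) and in limma on log2(TPM + 0.1) (0.0706) and log2(TPM + 1) (0.067). With a library left out Casp8 ranged from −0.0125 to 0.12, reversed without FVB replicate 2, and Apaf1 from −0.0109 to 0.0391, reversed without Tg-RKIP replicate 2 and without FVB replicate 3 (−0.0036). Casp9_5 was called with library size only (0.44) and in limma (0.47). The Casp9/Apaf1 log2 ratio was 0.19 on normalised reads and the Casp8/Casp9 ratio 0.33 on the most abundant transcripts, both reversed.

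In labelled Tg-GRK2 minus FVB, 2 members were called in DESeq2 and in both limma fits, against 4. Of all genes, 2673 of 15504 were called in DESeq2 and 2587 and 2554 of 13478 in limma, against 3793 of 15504. With a library left out, 3114 to 3773 genes were called. The most abundant transcript gave 1665 genes called, against 3793, and 6 other apoptosis genes, against 12. DESeq2 and both limma fits called 7 of these, and leaving out a library gave 7 to 11, the lowest without labelled Tg-GRK2 replicate 2. Reversed values were 0.0935 for Casp8 and −0.0069 for Bax on the most abundant transcript, −0.13 and −0.10 for Apaf1 in limma, and −0.28 for Casp9/Apaf1 on the most abundant transcripts. Bax ranged from −0.0345 to 0.0777 with a library left out, reversed without labelled Tg-GRK2 replicate 2 (−0.0026), FVB replicate 1 and FVB replicate 3 (−0.0285).

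In Tg-RKIP minus labelled Tg-GRK2, 8 members were called with library size only and in both limma fits, against 5. Of all genes, 12455 of 15504 were called with library size only and 10832 and 10891 of 13478 in limma, against 11551 of 15504. Reversed were Casp9 with library size only (0.35), without mitochondrially encoded genes (0.16), at a minimum of 100 reads (0.0232), and in limma (0.81 and 0.74), with −0.0506 to 0.0422 when a library was left out, the latter without Tg-RKIP replicate 2. Apaf1 reversed with library size only (0.30), without mitochondrially encoded genes (0.11) and in limma (1.43 and 1.15), and Casp9_5 with library size only (0.17) and in limma (0.17). On the most abundant transcripts Bax/Bcl2 was −0.28 against −0.36, and Bcl2/Bcl2l1 (−0.13), Casp9/Apaf1 (0.0497) and Casp8/Casp9 (0.51) reversed. On normalised reads Casp9/Apaf1 (0.0497) and Casp8/Casp9 (0.17) reversed. The cause of these changes was not tested.

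Replicate numbers did not pair the hearts, with correlations of −0.0525 to 0.0649 between same-numbered libraries. With the replicate block, 6, 4 and 5 members were called in the 3 comparisons, as without it, and 11401, 3660 and 11491 genes. Between 209 and 1745 reads per member and library limit the precision, and short transcripts with under 100 reads limit the transcript results.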
